A study of Mus musculus with 12 samples.

Results

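A group of 78 genes was measured here, chosen by their readout among the 15002 genes that the expression tables list. A gene was taken if its mean in resting siR_Nostrill cells was at least 1 FPKM (fragments scaled for transcript length and mapped reads). The ratio of its mean FPKM in siR_Nostrill cells to that in siR_Ctrl cells had to be at least 25% above 1 without IFN-γ and again with IFN-γ. In both states the lowest siR_Nostrill library also had to lie above the highest siR_Ctrl library. Of the 10444 genes that reached 1 FPKM, 84 met these criteria, and 6 of them, Ei24, Ifit1, Oasl2, Usp18, Ifitm10 and Dhx58, were set aside because the choice left out Ei24 and several families by name. All siRNA ratios below were therefore selected on, and they are given as a description without a test.

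The libraries came from IEC4.1, a line derived from the intestine of newborn mice and labelled as intestinal epithelial and, in the control groups, WT. In 4 groups of 3 libraries, cells received scrambled siRNA or siRNA to the lncRNA Nostrill, each without IFN-γ or with IFN-γ stimulation. According to the methods and a legend the transfection lasted 24 h, the Nostrill siRNA was a pool of 3 duplexes, and IFN-γ was given at 1 ng/ml for 4 h, whereas the labels state 24 h for each library. All 4 groups share the transfection itself and a single cell line, and the study calls the 3 libraries of a group biological replicates without saying how the cultures were separated.

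Between 17824306 and 19093204 reads were counted per library. The lncRNA Nostrill was not analysed here, and the knockdown was therefore not checked in these libraries. The cell type label was compared with markers. Of 18 epithelial markers 11 are listed and 2 reached 1 FPKM in any library, Tjp1, which lay between 4.8 and 16 FPKM, and Krt19, which lay between 0.91 and 2.76 FPKM. Epcam, Cdh1 and Ocln, which define epithelia, are not among the listed genes, and Vil1 did not exceed 0.070 FPKM. All 18 mesenchymal markers are listed and 16 reached 1 FPKM, among them Vim at 1536 to 2056 FPKM and Col1a1 at 176 to 315 FPKM, so the markers go against the epithelial label. The summed level of the epithelial markers was 10.2 to 18 FPKM in resting siR_Ctrl cells and 8.42 to 11 FPKM in resting siR_Nostrill cells, and that of the mesenchymal markers was 2836 to 3062 and 2796 to 3026 FPKM. With IFN-γ the epithelial sum was 7.64 to 15.1 FPKM with siR_Ctrl and 10.2 to 13.7 FPKM with siR_Nostrill. The mesenchymal sum with IFN-γ was 3055 to 3255 and 2999 to 3105 FPKM. The part of these markers in the results below was not tested.

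An siRNA is a short RNA duplex of which a single strand, the guide, is loaded into an Argonaute protein and pairs with a target transcript that is then cut. Bases 2 to 8 of the guide, the seed, can also pair with sites in the 3′ untranslated regions of other transcripts. IFN-γ binds its receptor, a complex that contains the Ifngr2 product, and acts through the kinases JAK1 and JAK2 on transcription factors that switch on chemokines, antigen presentation and antiviral genes. Long noncoding RNAs can bind such transcription factors or chromatin proteins.

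The 3 guides are shown because they are the agent that separates the groups. Each was derived as the reverse complement of the sense strand that the study lists, written 5′ to 3′ with the seed in capitals.
Nostrill-1: aUUAAUGCuucuucccagg
Nostrill-2: aUUUGUGUguuccuggugg
Nostrill-3: aUUAGAACgacuuauaggc

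A smaller share of members than of all genes carried matches to these seeds. A 7-base match to the seed of any of the 3 guides was found in a GENCODE 3′ untranslated region for 8 of 78 members (10.3%) and for 3451 of 11656 genes tested (29.6%). The member sites were GCATTAA in Ifngr2 and Qpctl, ACACAAA in 2610001J05Rik, Adamts4, Cxcl10 and Zfp934, and GTTCTAA in Cxcl10, Hyal2 and Ifih1. The longest 3′ untranslated region of a gene had a median of 893 bases in the members and 1199.5 bases in all genes tested, and the part of this shorter length in the lower share was not tested. A match is a description of the sequence, not a site shown to be used.

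Across the 78 members the siRNA ratio was modest. Without IFN-γ it ran from 1.2505 to 2.25 with a median of 1.36, and with IFN-γ from 1.26 to 2.13 with a median of 1.37, while the median over all genes tested of at least 1 FPKM was 0.993 and 1.04. The ratio was larger without IFN-γ in 41 members and larger with IFN-γ in 37. Mean levels in resting siR_Nostrill cells spanned 1.02 to 598 FPKM with a median of 18.3, and 16 members were below 5 FPKM. A lack of overlap with siR_Nostrill higher, which the choice required of all 78 members, was found for 11.0% of the genes of at least 1 FPKM without IFN-γ and for 15.4% with IFN-γ. In such bulk RNA, fewer cells of a type and less RNA per cell cannot be told apart.

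**Figure D1:**
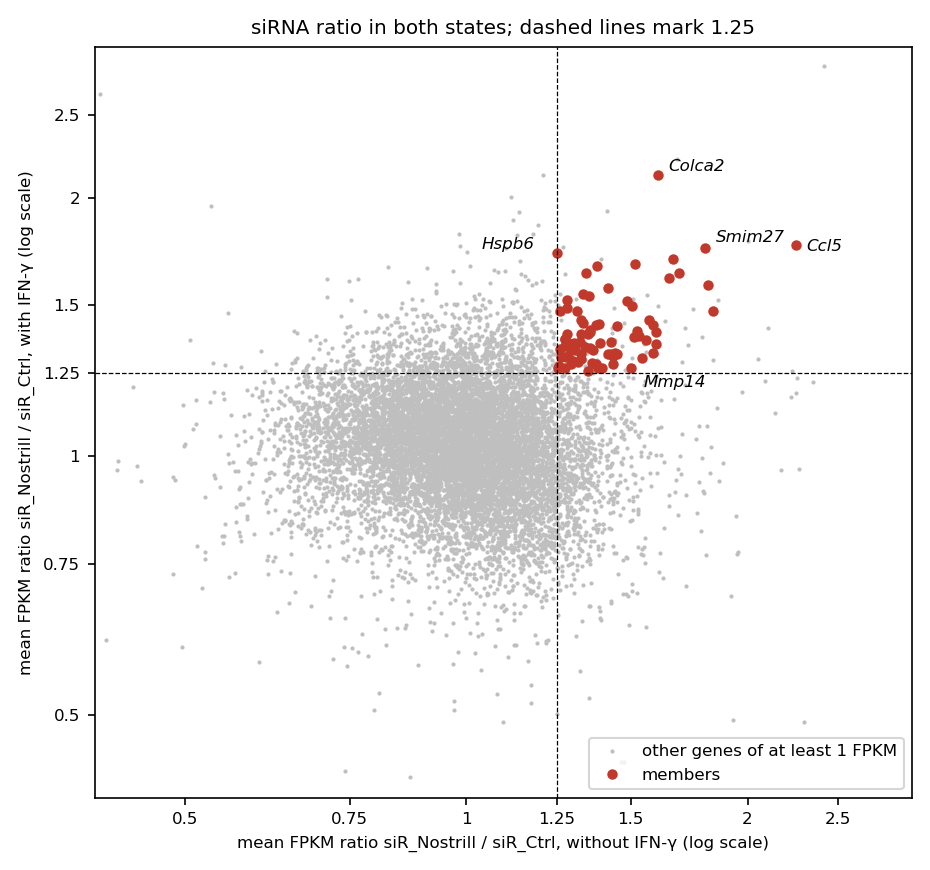
Ratio of mean FPKM in siR_Nostrill to siR_Ctrl cells without IFN-γ (x axis, log scale) and with IFN-γ (y axis, log scale), for the 78 members (red) and other genes of at least 1 FPKM (grey), with dashed lines at the threshold and a few genes beyond the axes. Members fill the upper right corner by construction, most of them close to the lines, with Ccl5 at 2.25 without IFN-γ and Colca2 at 2.13 with IFN-γ farthest out.

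The unit mattered for these ratios. FPKM totals of a library were 570935 to 735100 in resting siR_Ctrl cells and 681211 to 784574 in resting siR_Nostrill cells. With IFN-γ they were 634933 to 794809 in siR_Ctrl cells and 647111 to 698317 in siR_Nostrill cells. TPM values, in which each library has nearly the same total, gave median member ratios of 1.22 without and 1.45 with IFN-γ. Over all genes tested of at least 1 FPKM the medians were 0.887 and 1.09 in TPM, beside 0.993 and 1.04 in FPKM. The shift from FPKM to TPM was thus not particular to the members. With CPM, reads scaled to library size, after TMM normalization by the bulk of genes, the member medians were 1.4 and 1.31. Removal of the trend with transcript length from each library gave 1.28 and 1.37. The same criteria were met by 23 of the 78 members in TPM, by 38 in CPM and by 31 after removal of the length trend. Just 8 members met them in all 3 other units, namely Hoxd9, Ly6e, Ccl5, Sprr1a, Rhbdd3, Ctxn1, Dnajb5 and Dnajc30, and 25 met them in none. Hoxc6 turned its direction without IFN-γ, with a CPM ratio of 0.903 beside an FPKM ratio of 1.28.

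**Figure D2:**
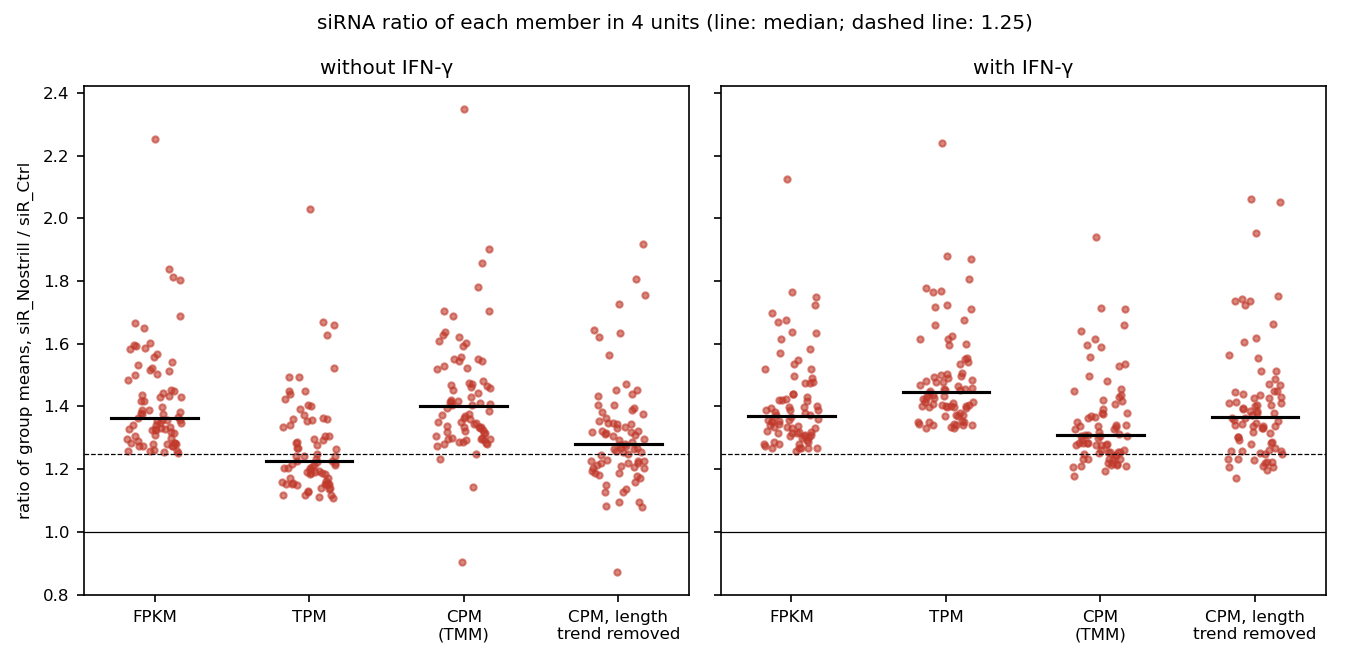
Ratio of siR_Nostrill to siR_Ctrl group means for each of the 78 members (points) in FPKM, TPM, TMM-normalized CPM and CPM with the length trend removed, without IFN-γ (left) and with IFN-γ (right); black bars are medians and the dashed line is the threshold. Without IFN-γ the median was 1.36 in FPKM and 1.22 in TPM, and 1 member, Hoxc6, lay below 1 in CPM. Over all genes tested of at least 1 FPKM the median without IFN-γ was 0.993 in FPKM and 0.887 in TPM.

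Gene length moved with the siRNA difference. Members were short, with a median effective length of 1657 nt against 2669 nt for all genes tested, and 64 of 78 were below the latter. Across the 11900 genes tested, Spearman's rho between effective length and the log2 fold change of siR_Nostrill against siR_Ctrl was -0.65 without IFN-γ and 0.26 with IFN-γ, a description over genes that share libraries. Shorter genes thus had higher values with siR_Nostrill in resting cells and lower values with siR_Nostrill in IFN-γ-treated cells. The part of length in the membership of single genes was not tested.

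**Figure D3:**
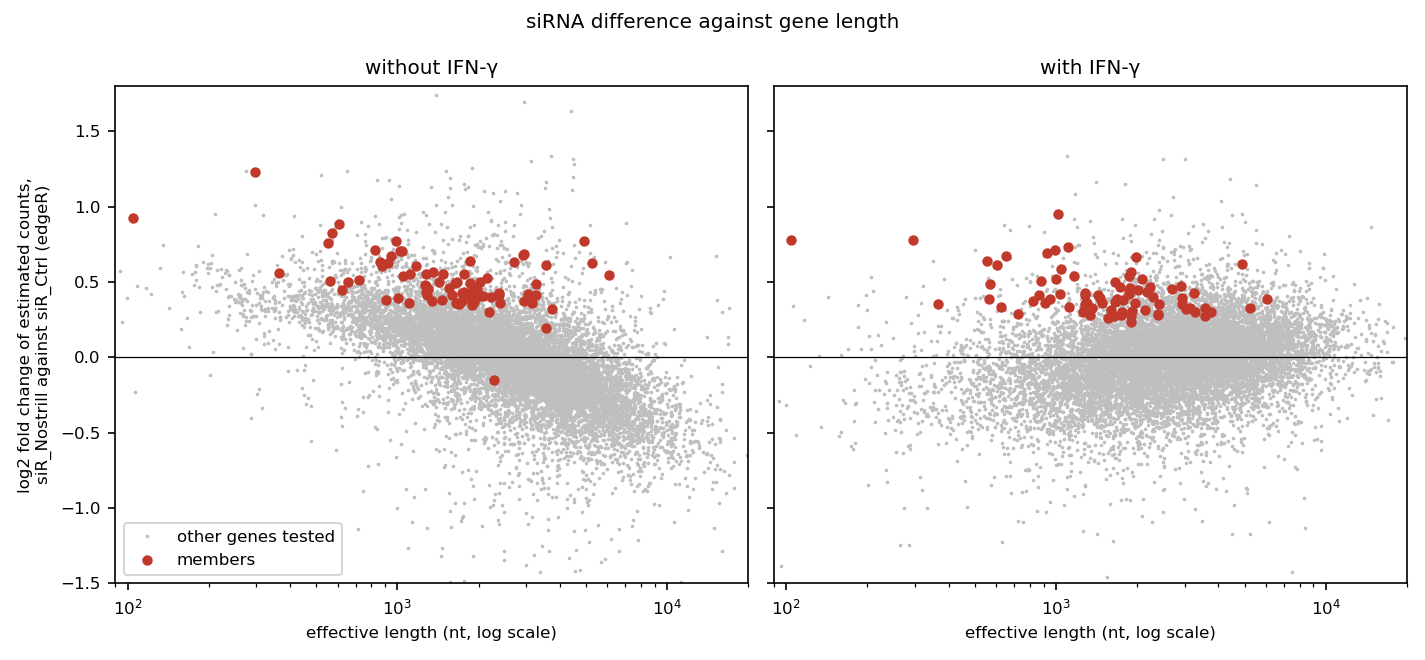
Log2 fold change of estimated counts for siR_Nostrill against siR_Ctrl (y axis) by effective gene length in nt (x axis, log scale) without IFN-γ (left) and with IFN-γ (right), members in red and other genes tested in grey. The grey cloud slopes downward on the left (rho -0.65) and gently upward on the right (rho 0.26), and members lie mostly at shorter lengths.

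Among the members were chemokines, small secreted proteins that attract leukocytes. Ccl5, an attractant of T cells and monocytes (chr11:83525778-83530518, GRCm38.p6), measured 58.9, 71.1 and 91 FPKM in resting siR_Ctrl cells and 193, 161 and 143 FPKM in resting siR_Nostrill cells. With IFN-γ it measured 118, 152 and 109.8 FPKM in siR_Ctrl cells and 233, 213 and 224 FPKM in siR_Nostrill cells. Every siR_Nostrill library was thus above the siR_Ctrl libraries of its state, and the ratios of 2.25 and 1.76 were the highest of all members when genes are ranked by the lower of both ratios. Ccl7, a monocyte attractant encoded on the same chromosome (chr11:82045712-82047525), had 115, 193 and 156 FPKM in resting siR_Ctrl and 240.5, 209.9 and 196 FPKM in resting siR_Nostrill cells, then 282, 249.9 and 194 and 340.2, 319 and 325 FPKM with IFN-γ. Its highest resting siR_Ctrl library lay just under its lowest resting siR_Nostrill library. Cxcl10, a ligand of CXCR3 and a classic interferon target (chr5:92346638-92348889), stood at 26.3, 26.6 and 37 FPKM against 49.5, 40.3 and 46.2 FPKM in resting cells. With IFN-γ it reached 777, 733 and 697 FPKM with siR_Ctrl and 970.4, 1022 and 1051 FPKM with siR_Nostrill. The siRNA ratios of Cxcl10, 1.51 and 1.38, were small beside its rise with IFN-γ.

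**Figure D4:**
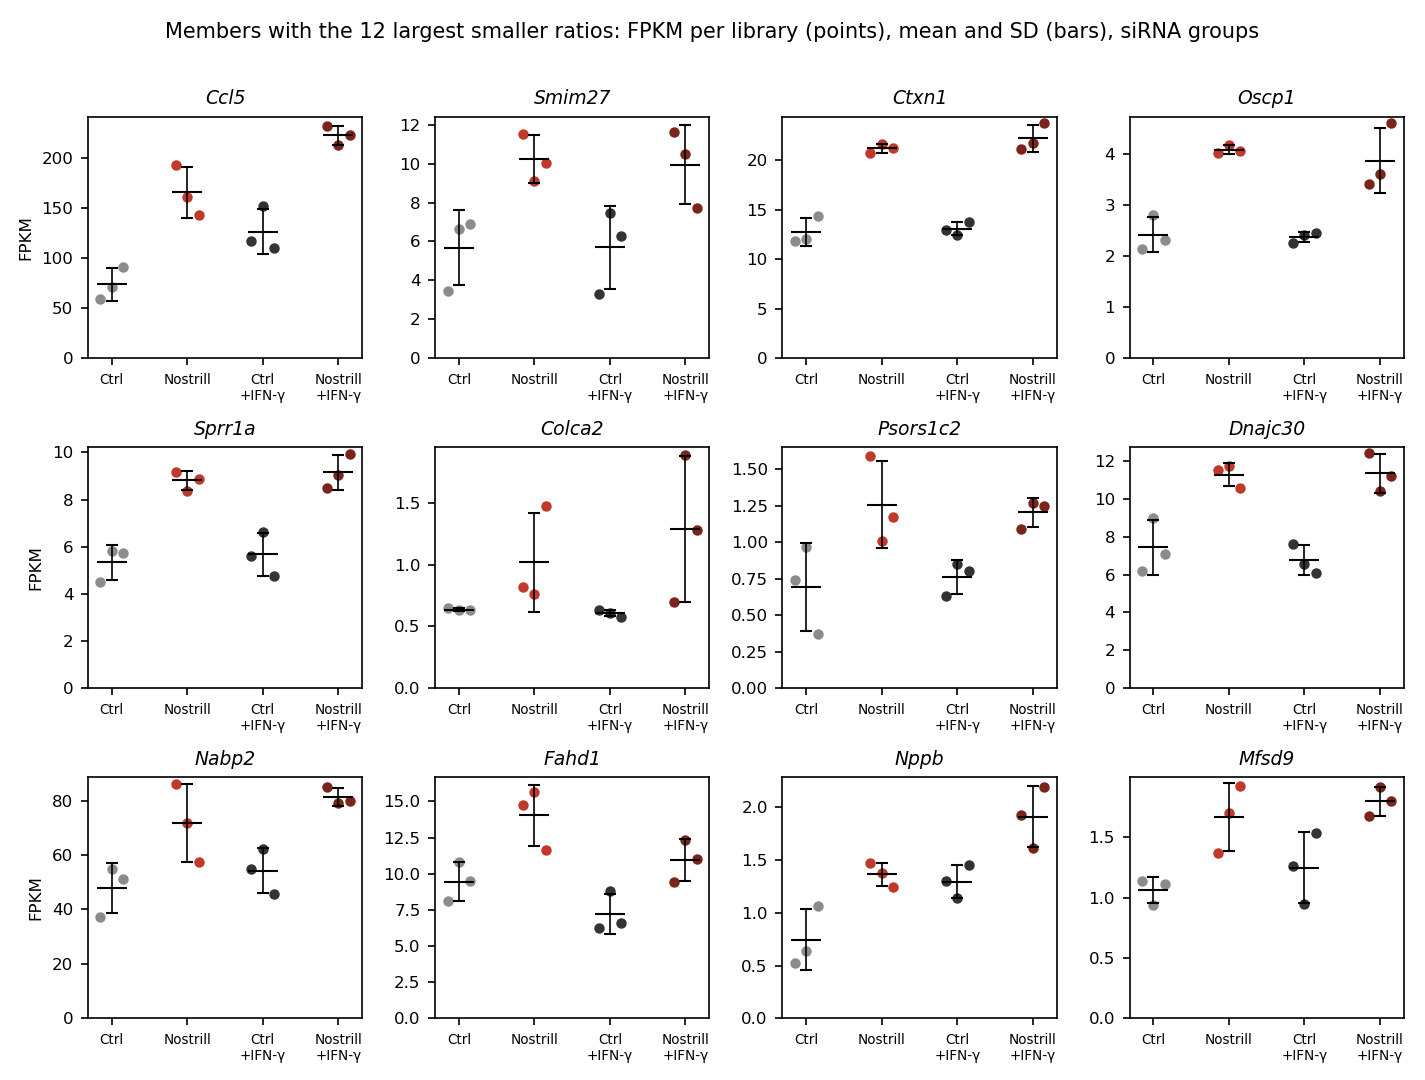
FPKM in each library (points) with the group mean and SD (bars, n = 3) for the 12 members with the largest smaller ratio (the lower of a gene's siRNA ratios in both states), by siRNA and IFN-γ. In each panel the 3 siR_Nostrill points of a state lie above the 3 siR_Ctrl points of that state, as the choice required, from Ccl5 at 166 FPKM to Colca2 at 1.02 FPKM in resting siR_Nostrill cells.

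Members also included a sensor of RNA, a DNA exonuclease, an interferon-induced surface protein and a receptor chain. Ifih1, which encodes the cytosolic sensor of long double-stranded RNA known as MDA5 (chr2:62595618-62646255), measured 0.96, 0.61 and 0.89 FPKM in resting siR_Ctrl cells and 1.34, 1.02 and 1.43 FPKM in resting siR_Nostrill cells. With IFN-γ the values were 2.74, 2.18 and 3.0 and 3.03, 3.65 and 3.63 FPKM, so its lowest siR_Nostrill library and its highest siR_Ctrl library were close together in both states. Trex1, a DNA exonuclease that limits sensing of self DNA (chr9:109057932-109059723), rested at 5.72, 7.01 and 9.11 FPKM with siR_Ctrl and 13.5, 11 and 10.3 FPKM with siR_Nostrill. It had 20.5, 27.4 and 20.4 and 27.8, 31 and 33.4 FPKM with IFN-γ. Ly6e, a GPI-anchored surface protein induced by interferons (chr15:74955025-74959904), measured 33.4, 41.1 and 46 FPKM and 68.6, 56.8 and 49.6 FPKM in resting siR_Ctrl and siR_Nostrill cells and 91.3, 113 and 86.1 FPKM and 133, 137 and 140.5 FPKM with IFN-γ. Its ratios were 1.45 and 1.42, and it met the criteria in all units. Ifngr2, the signalling chain of the IFN-γ receptor (chr16:91547059-91564007), had group means of 34 ± 2.25 and 43.5 ± 4.08 FPKM in resting cells and 33.5 ± 0.389 and 50.9 ± 2.22 FPKM with IFN-γ (SD, n = 3).

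Promoter sequences of 4 members are shown as examples of windows that hold letters of an interferon-response motif. Hspb6, Copz1 and Efna3 also have such a window and are not shown. In the test of IFN-γ given below, Cxcl10, Ifih1 and Mgst1 rose, whereas Nabp2, Hspb6, Copz1 and Efna3 were not called. They are RefSeq windows of 300 bases on GRCm38.p6, from 250 before to 50 after a transcript start, and 63 of the 78 members had such a window. Capitals mark GAAANNGAAA, the core of the element bound by interferon regulatory factors (ISRE), in Cxcl10, Ifih1 and Nabp2, and TTCNNNGAA, the element bound by STAT dimers (GAS), in Mgst1.
Cxcl10, chr5:92348840-92349139, minus strand: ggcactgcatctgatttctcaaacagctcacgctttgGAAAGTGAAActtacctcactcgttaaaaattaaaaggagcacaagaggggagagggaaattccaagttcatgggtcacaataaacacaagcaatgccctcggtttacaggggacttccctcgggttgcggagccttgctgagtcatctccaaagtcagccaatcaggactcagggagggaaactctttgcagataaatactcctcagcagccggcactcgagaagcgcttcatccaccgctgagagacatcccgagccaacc
Ifih1, chr2:62646206-62646505, minus strand: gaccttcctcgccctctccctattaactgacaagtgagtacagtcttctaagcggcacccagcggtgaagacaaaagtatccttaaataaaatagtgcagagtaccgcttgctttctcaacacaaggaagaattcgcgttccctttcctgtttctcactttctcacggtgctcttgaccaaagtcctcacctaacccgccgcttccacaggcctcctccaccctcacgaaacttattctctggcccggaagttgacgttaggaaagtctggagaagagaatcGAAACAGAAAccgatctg
Nabp2, chr10:128409801-128410100, minus strand: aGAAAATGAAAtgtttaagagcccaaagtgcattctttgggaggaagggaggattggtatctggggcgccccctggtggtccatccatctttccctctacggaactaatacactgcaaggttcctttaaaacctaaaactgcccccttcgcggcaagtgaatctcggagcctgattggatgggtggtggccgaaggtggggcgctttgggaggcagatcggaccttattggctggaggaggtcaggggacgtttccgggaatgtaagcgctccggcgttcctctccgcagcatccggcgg
Mgst1, chr6:138141337-138141636, plus strand: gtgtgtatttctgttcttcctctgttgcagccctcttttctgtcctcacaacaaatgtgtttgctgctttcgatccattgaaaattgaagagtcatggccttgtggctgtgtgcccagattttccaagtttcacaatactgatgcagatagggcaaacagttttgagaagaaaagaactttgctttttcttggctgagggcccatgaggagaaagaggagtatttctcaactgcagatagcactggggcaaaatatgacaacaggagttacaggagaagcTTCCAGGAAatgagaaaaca

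Searched on both strands, GAAANNGAAA was present for 4 of 63 members (6.35%), Cxcl10, Hspb6, Ifih1 and Nabp2, and for 3.84% of the 9521 tested genes with a window (3.99% of all genes with a window). TTCNNNGAA was present for 4 members (6.35%), Copz1, Efna3, Mgst1 and Nabp2, and for 8.29% of tested genes (9.55% of all). The Nabp2 window shown holds both motifs, but the 2 other windows of Nabp2 hold neither. The Mgst1 window shown lies inside the gene, and the other one, at the listed start of the gene, holds neither motif. Among general promoter elements, GGGCGG was present for 48 members (76.2% against 69.8% of tested genes and 38.2% of all), CCAAT for 27 (42.9% against 43.8% and 41.1%), TATAAA for 6 (9.52% against 8.28% and 15.7%) and CACGTG for 7 (11.1% against 11.7% and 8.09%). Member shares were thus close to those of the tested genes, and a match does not show that a factor binds.

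Other secreted or shed proteins were also among the members. The annotation extracellular space was carried by 15 members (19.2%), the chemokines Ccl5, Ccl7 and Cxcl10 included, against 5.22% of tested genes. This term was picked after its count was seen and was not tested. Nppb, the brain natriuretic peptide (chr4:147985786-147987205), was low, at a mean of 0.743 ± 0.289 FPKM in resting siR_Ctrl cells and 1.37 ± 0.111 FPKM in resting siR_Nostrill cells (SD, n = 3). Its values with IFN-γ were 1.3, 1.14 and 1.45 and 1.93, 1.62 and 2.19 FPKM, and it rested on 5 to 23 reads a library. Like Egr2 and Psors1c2, Nppb was listed on an alternate scaffold. Mmp14, a membrane-bound protease that cuts collagen and activates other matrix metalloproteases (chr14:54431598-54442456), measured 41.2, 41.5 and 43.9 FPKM and 59, 66.4 and 64.5 FPKM in resting siR_Ctrl and siR_Nostrill cells. Its ratio was 1.5 without IFN-γ and 1.27 with IFN-γ. Adamts4, an aggrecan-cleaving protease (chr1:171250129-171262267), had ratios of 1.43 and 1.36, and Tgfb3, a growth factor of the TGF-β family (chr12:86056743-86079041), of 1.26 and 1.31. Lgals3bp, a secreted glycoprotein that binds galectins (chr11:118392747-118401959), stood at 16.3, 13.9 and 18 FPKM and 20.3, 19.5 and 22.4 FPKM in resting siR_Ctrl and siR_Nostrill cells and at 39.4, 35 and 39.8 FPKM and 54.1, 48.6 and 49.8 FPKM with IFN-γ. Further members of this kind were C1qtnf6, Olfm1, the ribonuclease Rnase4 and the co-stimulatory ligand Tnfsf9, which binds 4-1BB. Their ratios ran from 1.28 to 1.43 without IFN-γ and from 1.31 to 1.49 with IFN-γ. The ephrin Efna3, a membrane-anchored ligand of Eph receptors, had 1.36 and 1.34.

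Several members encode transcription regulators. Hoxd9, Hoxd8 and Hoxc6 are homeobox genes, which set positional identity along the body axis. Hoxd9 (chr2:74697763-74700208) measured 5.58, 4.9 and 5.44 FPKM in resting siR_Ctrl and 7.91, 8.32 and 8.0 FPKM in resting siR_Nostrill cells, and 8.22, 8.45 and 7.51 and 11.7, 11.3 and 10.8 FPKM with IFN-γ. The 3 libraries of each group were close together, the siRNAs stood apart within each state as the choice required, and resting siR_Nostrill cells overlapped with IFN-γ-treated siR_Ctrl cells. Hoxd8 (chr2:74704615-74707933), which starts 4407 bp from the end of Hoxd9, measured 10.5, 12.3 and 13 and 17, 15.4 and 14.3 FPKM in resting cells and 21.6, 21.7 and 20.3 and 26.1, 28.1 and 31.9 FPKM with IFN-γ. Hoxc6 (chr15:102998226-103011882) had 14.2, 12.4 and 10.2 FPKM and 17.1, 15.2 and 14.9 FPKM in resting cells, but its direction depended on the unit, as given above. Egr2, an immediate-early zinc finger factor (chr10:67534469-67542188, listed in the tables on an alternate scaffold), had 1.46, 0.82 and 1.48 and 2.11, 1.87 and 1.98 FPKM in resting cells and 2.82, 2.35 and 3.17 and 4.01, 3.86 and 3.99 FPKM with IFN-γ, a lower level than that of the chemokines. Bcl3, a nuclear IκB protein that binds NF-κB p50 and p52 (chr7:19808462-19822824), had resting means of 7.54 ± 1.27 and 9.81 ± 0.597 FPKM and IFN-γ means of 21 ± 1.34 and 27.1 ± 3.43 FPKM (SD, n = 3). Nr2f1, an orphan nuclear receptor, had ratios of 1.35 and 1.54, the LIM cofactor Ldb1 1.3 and 1.28, Nfe2l1, which switches on proteasome genes, 1.28 and 1.31, the zinc finger gene Zfp934 1.34 and 1.64, and Mllt11 1.35 and 1.39.

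Enzymes and carriers of the endoplasmic reticulum and Golgi made up a further set. Dhcr7, which catalyses the last step of cholesterol synthesis (chr7:143823167-143848410), measured 18, 16.6 and 19.1 FPKM in resting siR_Ctrl cells and 25, 20.6 and 25.5 FPKM in resting siR_Nostrill cells, with ratios of 1.33 and 1.44. Erg28, a scaffold of sterol enzymes, had 1.34 and 1.34, and Hacd1, a dehydratase of fatty acid elongation, 1.38 and 1.67. Mgst1, a membrane-bound glutathione transferase (chr6:138140527-138156755), measured 11, 11.2 and 11.5 and 17.4, 15.2 and 14.6 FPKM in resting cells and 26.4, 23.5 and 19.1 and 31.2, 28.7 and 27.6 FPKM with IFN-γ. In protein glycosylation the members were Dpm2, a subunit of dolichol-phosphate mannose synthase (1.33 and 1.31), Slc35a2, the Golgi carrier of UDP-galactose (1.26 and 1.27), and Chst12, a chondroitin sulfotransferase (1.35 and 1.26). Copz1, a subunit of the COPI vesicle coat (chr15:103272888-103299865), was among the 5 most abundant members, at 115, 152 and 150.2 FPKM and 200.1, 168 and 163 FPKM in resting siR_Ctrl and siR_Nostrill cells. Golga7, which supports palmitoylation of Ras, had ratios of 1.26 and 1.48. Of lysosome-linked genes, Cln6, lost in a neuronal ceroid lipofuscinosis, had 1.33 and 1.55, and Lamtor1, which tethers the Ragulator complex to the lysosome for mTORC1 activation, had 1.56 and 1.37.

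Genes of mitochondria and cell death included opposing members of a single family. Bak1, which permeabilizes the mitochondrial outer membrane in apoptosis (chr17:27019812-27028627), measured 56.5, 64.3 and 65.9 FPKM and 83.3, 82.2 and 81.7 FPKM in resting siR_Ctrl and siR_Nostrill cells, and 100, 103 and 98.6 and 148, 131 and 131 FPKM with IFN-γ. Bcl2l2, an inhibitor of apoptosis also called Bcl-w (chr14:54883366-54890858), measured 12.1, 10.7 and 11.5 and 22.1, 14.4 and 16.1 FPKM in resting cells, with the first siR_Nostrill library well above the others. Dnajc30, a mitochondrial J-domain protein (chr5:135064206-135065365), measured 6.18, 9.01 and 7.11 and 11.5, 11.7 and 10.6 FPKM in resting cells and 7.63, 6.58 and 6.09 and 12.4, 10.4 and 11.2 FPKM with IFN-γ. Fahd1, an acylpyruvate hydrolase, had ratios of 1.49 and 1.52, and Lyrm4, which takes part in iron-sulfur cluster assembly, 1.33 and 1.39.

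The remaining members with large ratios were of mixed or little known function. Smim27, which encodes a small membrane protein (chr4:40269579-40270228), came next after Ccl5 in that ranking, at 3.46, 6.66 and 6.91 FPKM and 11.6, 9.1 and 10 FPKM in resting siR_Ctrl and siR_Nostrill cells and 3.3, 7.48 and 6.29 and 11.7, 10.5 and 7.71 FPKM with IFN-γ. It rested on 6 to 26 reads a library and an effective length of 104 nt. Ctxn1, a small membrane protein first described in cortex (chr8:4257646-4259274), measured 11.9, 12 and 14.4 and 20.8, 21.7 and 21.2 FPKM in resting cells and 13, 12.5 and 13.8 and 21.2, 21.8 and 23.8 FPKM with IFN-γ, with the siRNAs apart within each state, as the choice required, and overlap between the states of each siRNA. Sprr1a, a cornified envelope precursor (chr3:92483954-92485881), measured 4.49, 5.8 and 5.73 and 9.18, 8.37 and 8.87 FPKM in resting cells and 5.62, 6.62 and 4.77 and 8.48, 9.05 and 9.95 FPKM with IFN-γ. Oscp1 (chr4:126055643-126092195) measured 2.14, 2.8 and 2.32 and 4.02, 4.18 and 4.06 FPKM in resting cells, and its siR_Nostrill libraries were nearly equal there. Colca2 (chr9:51270258-51278565) measured 0.65, 0.63 and 0.63 and 0.82, 0.76 and 1.48 FPKM in resting cells and 0.63, 0.61 and 0.58 and 0.70, 1.89 and 1.28 FPKM with IFN-γ, so that its ratio of 2.13 with IFN-γ came from siR_Nostrill libraries that differed among themselves. Nabp2, a single-stranded DNA binding protein of DNA repair also called SSB1 (chr10:128401394-128411548), had 1.5 and 1.5, the low-level Psors1c2 1.81 and 1.58, and Mfsd9, of the major facilitator superfamily, 1.57 and 1.44.

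In resting cells the highest levels belonged to Cstb and Ppp2r1a, whereas Cxcl10 was highest with IFN-γ. Cstb, an inhibitor of cysteine cathepsins (chr10:78425670-78427622), measured 318, 477 and 461 FPKM and 647, 628 and 519.8 FPKM in resting siR_Ctrl and siR_Nostrill cells and 481, 571 and 421 and 645, 645 and 650.1 FPKM with IFN-γ. Ppp2r1a, the scaffold subunit of protein phosphatase PP2A (chr17:20945454-20965905), measured 155, 159.7 and 176 and 228, 228 and 224 FPKM in resting cells and 159, 159.6 and 156 and 223, 220.3 and 233 FPKM with IFN-γ. The Ppp2r1a libraries of a group lay close together, whereas the first siR_Ctrl library was the lowest for Cstb. Taldo1, transaldolase of the pentose phosphate pathway, had ratios of 1.6 and 1.4. Other members were Tmem128, Qpctl, Syngr2, Akap7, Plekho2, Shisa4, Dnajb5, Mapk1ip1, Lypla2, Rhbdd3, Mpzl1, Hyal2, Ggt7, Naa80, Frs3, Orai3, Prr13, 2610001J05Rik, Cmtm3, Prpsap1, Ovca2, Ctc1 and Hspb6, with ratios between 1.2505 and 1.58 without IFN-γ and between 1.27 and 1.72 with IFN-γ.

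At the threshold the smaller of both ratios was 1.2505 for Hspb6, 1.254 for Ctc1 and 1.26 for Slc35a2 just inside, and 1.246 for Adck2, 1.245 for Vps25 and 1.244 for D030056L22Rik just outside, genes that met every other criterion. No gap separated members from the genes next to them.

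A count test of the siRNA contrasts gave few calls. By the quasi-likelihood test of edgeR, with p adjusted after Benjamini and Hochberg over 11900 genes at 0.05, all 78 members passed the filter on low counts, 4 members were higher with siR_Nostrill without IFN-γ, where 0.0756% of all genes were, and 6 with IFN-γ, where 0.185% were. As these contrasts chose the members, nothing is read from those counts.

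The effect of IFN-γ, averaged over both siRNAs, is a contrast the choice did not use and was tested by edgeR's quasi-likelihood test, with p adjusted as above. The choice did require a minimum level and a lack of overlap, which favours genes with little spread within a group. Such genes are more easily called, so the shares of members and of all genes are not a like comparison. Of the 78 members 17 rose and 3 fell with IFN-γ, whereas 6.81% of all genes tested rose and 2.4% fell. The median log2 fold change was 0.08 over the members and -0.02 over all genes tested. Cxcl10 rose most, by 4.57 ± 0.11 on the log2 scale (SE, adjusted p = 1.07e-10). Ifih1 rose by 1.59 ± 0.12 (adjusted p = 2.08e-06), Trex1 by 1.55 ± 0.15 (adjusted p = 2.93e-05) and Bcl3 by 1.5 ± 0.09 (adjusted p = 1.77e-07). Lgals3bp rose by 1.29 ± 0.06 (adjusted p = 2.74e-08) and Ly6e by 1.29 ± 0.11 (adjusted p = 5.04e-06). The other risers, in falling order, were Egr2, Mgst1, Hoxd8, Bak1, Ccl7, Ccl5, Hoxd9, Golga7, C1qtnf6, Adamts4 and Cln6, at 1.12 to 0.30.

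**Figure D5:**
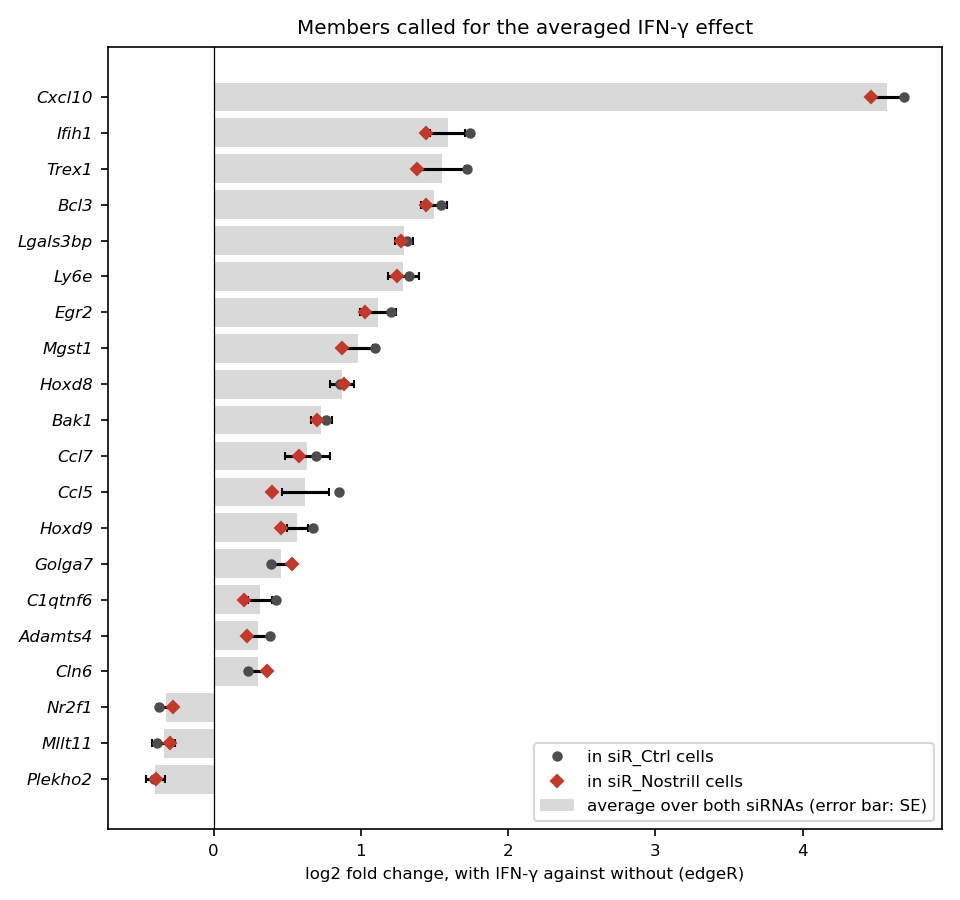
Log2 fold change with IFN-γ against without, from edgeR, for the 20 members called for the average over both siRNAs (grey bars with SE), with the values in siR_Ctrl cells (circles) and siR_Nostrill cells (diamonds). Cxcl10 stands apart at 4.57, and Nr2f1, Mllt11 and Plekho2 lie below 0.

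The 3 members that fell with IFN-γ, with log2 fold changes below 0, were Plekho2, a pleckstrin homology domain protein, at -0.40 ± 0.07 (SE, edgeR adjusted p = 0.00181), Mllt11 at -0.34 ± 0.08 (adjusted p = 0.0128) and Nr2f1 at -0.32 ± 0.06 (adjusted p = 0.00582). Plekho2 measured 18.3, 14.8 and 15.7 FPKM without and 12.1, 10.8 and 12.8 FPKM with IFN-γ in siR_Ctrl cells, and 19.6, 21.9 and 23.7 and 17.5, 17.3 and 16.4 FPKM in siR_Nostrill cells, without overlap for either siRNA. Tgfb3 missed the threshold at -0.24 ± 0.07 (adjusted p = 0.0512). The 58 members without a call had log2 fold changes from -0.35 (Fahd1) to 0.64 (Nppb). Among them Ppp2r1a at -0.00344 ± 0.06 and Ctxn1 at 0.07 ± 0.07 had small estimates. Other uncalled members, such as Shisa4 at 0.43 ± 0.13, had larger estimates than the called Cln6 at 0.30 ± 0.07, so a missing call does not mean a small estimate.

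The effect of IFN-γ was also counted within each siRNA. Each of these contrasts shares single groups with the siRNA ratios that chose the members, so the counts are a description. In siR_Ctrl cells 12 members rose with IFN-γ and 2 fell, against 4.71% and 0.748% of all genes, and in siR_Nostrill cells 13 rose and 1 fell, against 5.24% and 1.55%. With the trend with gene length removed, edgeR called 34 members for the averaged effect in place of 20, and 2377 of all genes in place of 1096. In siR_Nostrill cells it called 31 members in place of 14, and 2256 of all genes in place of 807, so these counts depend on how length is treated. Over all genes the calls in siR_Nostrill cells numbered 491 without siR_Nostrill replicate 2 and 500 without siR_Nostrill + IFN-γ replicate 2. Differences between the siRNAs in the effect of IFN-γ were not tested, since they use the same siRNA contrasts that chose the members. Cxcl10 rose by 4.69 ± 0.16 on the log2 scale in siR_Ctrl cells and by 4.46 ± 0.16 in siR_Nostrill cells (SE). Ccl5 was called in neither siRNA alone, at 0.85 ± 0.23 and 0.40 ± 0.22.

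Of the averaged calls, 16 held in every setting tried, and those on Ccl5, Ccl7, Adamts4 and C1qtnf6 did not hold without some single libraries. Ccl5 (adjusted p = 0.0293 by edgeR) went up to 0.0724 and lost its call with the replicate number as a block and without siR_Ctrl replicate 2, siR_Nostrill replicate 2 or 3, or any siR_Nostrill + IFN-γ replicate. Ccl7 (0.0194) went up to 0.059 and lost it without siR_Ctrl + IFN-γ replicate 1, siR_Nostrill replicate 2 or 3, or siR_Nostrill + IFN-γ replicate 3. Adamts4 (0.0214) went up to 0.144 and lost it in limma on FPKM and without siR_Ctrl + IFN-γ replicate 1 or 3, siR_Nostrill replicate 1 or 2, or siR_Nostrill + IFN-γ replicate 3. C1qtnf6 (0.0269) went up to 0.0726 and lost it without siR_Nostrill replicate 1 or 3 or siR_Nostrill + IFN-γ replicate 2 or 3. Length moved less with the averaged IFN-γ effect (rho 0.15 over genes) than with the effect in siR_Ctrl cells (-0.42) or siR_Nostrill cells (0.48).

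The gene lists of related functions were then counted for members. Of 60 tested genes in a list of further interferon-stimulated genes, 7 were members (11.7%), Ccl5, Ly6e, Cxcl10, Ccl7, Ifih1, Lgals3bp and Ifngr2, whereas 0.655% of all genes tested were. With IFN-γ, 56 of the list rose by edgeR and 0 fell, where 6.81% and 2.4% of all genes tested did. The 53 genes of the list that are no members had a positive siRNA log2 fold change in 44 cases without IFN-γ (median 0.20) and in 42 with IFN-γ (median 0.20), where 50.6% and 49.4% of all genes were positive. Of 31 Hox genes tested 3 were members. By the same test 5 Hox genes, the members Hoxd9 and Hoxd8 included, were raised by IFN-γ and none lowered, beside 6.81% and 2.4% of all genes. The Hox list had a median siRNA log2 fold change of 0.12 without and 0.16 with IFN-γ. These medians include the 3 members, which were chosen on this contrast, so nothing is read from them. Matrix and TGF-β genes held 3 members of 33, Adamts4, Mmp14 and Tgfb3. The medians of this list were -0.14 and 0.15, and 27.3% of its genes were positive without and 66.7% with IFN-γ. As the 3 members are included here too, nothing is read from these values.

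Lists of the secretory pathway and lysosome held 0 to 2 members each. There was 1 of 41 genes of glycan assembly (Dpm2), 2 of 73 of Golgi glycosylation (Chst12 and Slc35a2), 2 of 68 of vesicle traffic (Copz1 and Golga7), 1 of 61 lysosomal genes (Cln6) and 1 of 29 around mTORC1 (Lamtor1). Another single member each came from 340 Zfp genes (Zfp934), 195 solute carriers (Slc35a2), 156 Tmem genes (Tmem128), 29 p53 targets (Bak1) and 27 early genes (Egr2). No member belonged to GPI anchor synthesis, the translocon, the V-ATPase, the Zdhhc palmitoyltransferases, Integrator, the 9-1-1 checkpoint clamp or the 3 marker lists.

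In the genome the members were spread over 19 chromosomes, with most on chromosome 11, which held 9. Pairs within 500 kb were Hoxd9 and Hoxd8, Hyal2 and Naa80 (7891 bp apart), Erg28 and Tgfb3 (231850 bp), Hoxc6 and Copz1 (261006 bp) and Mmp14 and Bcl2l2 (440910 bp). A protein-coding gene overlapped 16 members (20.5%), and 21.5% of tested genes had such an overlap. Whether reads were counted by strand was not given in the sources used here, so values of these 16 genes are uncertain where the partner is abundant. Dnajc30 overlaps Bud23, whose ratios of 0.74 and 0.60 went the other way. Others were Adamts4, Bak1, Cxcl10, Erg28, Fahd1, Frs3, Hspb6, Lamtor1, Mllt11, Naa80, Ovca2, Rhbdd3, Rnase4 and Smim27.

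Annotation terms gave a further description, for terms picked after their counts were seen. Chemotaxis was carried by 4 members (Ccl5, Ccl7, Cmtm3 and Cxcl10, 5.13% against 0.462% of tested genes), and defense response to virus by 5 (Cxcl10, Hyal2, Ifih1, Ifngr2 and Trex1, 6.41% against 1.21%). Endoplasmic reticulum was at 15.4% against 9.73%, Golgi apparatus at 8.97% against 8.81%, and mitochondrion at 8.97% against 13%.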

How the data were processed

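Poly(A) RNA of 12 libraries was sequenced on a DNBSEQ platform. Per the submitters' processing notes reads were aligned with HISAT2 to GRCm38.p6 (mm10), and the tool that counted genes was not given in the sources used here. As deposited, each gene has an estimated count of reads in each library, not normalized and exactly whole (no tolerance) in 90.6% to 91.6% of genes. The authors also deposited FPKM, scaled for length and mapped reads, and TPM, scaled to one total per library. The tables list only genes with reads in resting siR_Nostrill cells, whereas 544 to 629 of them were at 0 in each other group.

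The members were chosen on FPKM. Members, gene lists and tests were chosen with earlier results of these data known. Estimated counts were rounded and fitted with edgeR 4.0.16 in R 4.3.3 (TMM, default filter on low counts, all 12 libraries, quasi-likelihood test, Benjamini-Hochberg adjustment over all 11900 genes, threshold 0.05), and the procedure was tested on simulated data. Alternatives were DESeq2 1.42.0, its size factors in edgeR, other filters (none, or a mean of 5 CPM), the replicate number as a block, removal of the length trend (lowess, span 0.3), limma 3.58.1 on log2 FPKM with a pseudocount of 1 (genes of at least 0.5 FPKM, or all genes) or 0.1, and each library left out. Named were the 12 members with the highest smaller ratio, the 5 with the highest level, up to 4 per list, up to 6 that rose and 6 that fell with IFN-γ, and 3 on each side of the threshold, with further members by function. Results on some genes are not reported here.

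Replicates of a group differed by more than sampling noise (chi-square per degree of freedom 6.72 to 101), and p-values measure the spread between these libraries. Effective length was the median over libraries of the length implied by the count and FPKM.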

Additional observations from a re-analysis of the deposited data

How the results depend on the processing

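The number of genes that met the criteria was 40 in TPM, 45 in TMM-normalized CPM, 68 in CPM with the length trend removed, 8 with a ratio of at least 1.5 and 367 without a ratio threshold, against 78, and ran from 69 to 111 when a library was left out, with 36 of the 78 members present in each of these 12 sets. The median siRNA log2 ratio of the members without IFN-γ was 0.29 in TPM, an alternative added after seeing the data, against 0.45 in FPKM. The median ratio over all genes tested of at least 1 FPKM was also lower, at 0.887 in TPM against 0.993 in FPKM. For Hoxc6 the siRNA log2 ratio without IFN-γ reversed to -0.15 in CPM and -0.20 after removal of the length trend. Removal of the length trend raised the calls for the averaged IFN-γ effect from 1096 to 2377 over all genes and from 20 to 34 members, those in siR_Ctrl cells from 649 to 1323, and those in siR_Nostrill cells from 807 to 2256 over all genes and from 14 to 31 members. DESeq2 made 1330 calls for IFN-γ in siR_Nostrill cells. Leaving out a library gave 883 to 1347 calls for the averaged effect (16 to 22 members), 489 to 589 in siR_Ctrl cells (11 to 14 members) and 491 to 1138 in siR_Nostrill cells (11 to 14 members), where the call count was 491 without siR_Nostrill replicate 2 and 500 without siR_Nostrill + IFN-γ replicate 2. The cause of these changes was not tested.

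With the replicate number as a replicate block, calls were 1108 for the averaged effect (19 members), 644 in siR_Ctrl cells (15 members) and 943 in siR_Nostrill cells (13 members), and Ccl5 lost its averaged call. Same-numbered libraries correlated from -0.49 to 0.73 in their deviations from the group means, not all above 0.1. Differently numbered libraries of different groups correlated from -0.81 to 0.77. These values did not show that the numbers pair the samples, and with such a range they cannot exclude it. Members at low levels, such as Smim27, Psors1c2, Nppb and Colca2, rest on few reads, and intervals of such counts cover counting error only.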
